A study of Mus musculus with 12 samples.

Results

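Endothelial and mural cell genes were followed through an RNA sequencing count table of mouse pontine nucleus neurons, a hindbrain relay between cortex and cerebellum. They are 33 genes picked by symbol out of the 23079 genes of the table. The 33 comprise 13 endothelial identity and junction genes, 5 transporter genes of the blood-brain barrier, 7 pericyte genes, 3 smooth muscle genes, the apelin ligand and receptor genes, and 3 further genes (Cmklr1, Dock6 and Itga4). They were chosen with the difference between Hoxa5tdTomato and reference libraries known, so that difference is described here without a test. All 33 were found, and 30 passed the filter on low counts that left 14732 genes for testing. Ly6c1, Ly6a and Acta2 did not pass it.

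Brain capillaries consist of endothelial cells, joined by tight junctions and equipped with selective transporters, and of pericytes that share their basement membrane. Larger vessels carry smooth muscle in place of pericytes. Endothelial cells answer to vascular endothelial growth factor (VEGF) and angiopoietins through receptor tyrosine kinases, and they recruit pericytes through platelet-derived growth factor (PDGF) and Notch signals. Neither endothelial nor mural cells are neurons, and the labels describe the material as sorted neurons.

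The study set 6 reference libraries, labelled Math1tdTomato, against 3 libraries labelled Hoxa5tdTomato and 3 labelled Math1Hoxa5-IRES-GFP. All came from E18.5 embryos of the CD-1 strain, with 2000 sorted cells for each library and amplification of RNA from 1000 cell equivalents. Math1 is another name of Atoh1, which is active in the rhombic lip, the birthplace of pontine neurons, and tdTomato and GFP are fluorescent proteins. The column names give creErt2 for 3 references and tdT for the other 3, cre for the Hoxa5tdTomato libraries, and Cag and lsl with Hoxa5 for the libraries labelled Math1Hoxa5-IRES-GFP. The labels do not say which references belong with which other group, nor whether libraries of a group came from separate animals, so the p values measure only the spread between these libraries. The creErt2 reference and Hoxa5tdTomato libraries held 9973484 to 13302076 counts, and the tdT reference and Math1Hoxa5-IRES-GFP libraries held 22355961 to 29820776, so depth and column set cannot be told apart.

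Hoxa5 itself served as the check of the labels. Its level, in counts per 1000000 counts of the scaled library (CPM), was 127, 222 and 119 in Hoxa5tdTomato libraries 1 to 3, against 4.35 to 32.2 with a median of 8.71 in the references. All 3 Hoxa5tdTomato libraries lay above every reference, with a log2 fold change of 3.46 ± 0.59 (standard error; adjusted p = 0.00712, edgeR quasi-likelihood test with Benjamini-Hochberg adjustment over 14732 genes, and 0.0698 against the creErt2 references alone). In the libraries labelled Math1Hoxa5-IRES-GFP the level was 9.73, 16.8 and 82.0 CPM, above every reference in library 3 alone, and the difference did not pass the test (log2 fold change 1.35 ± 0.59, adjusted p = 0.255). The targeted gene therefore does not separate 2 of the libraries labelled Math1Hoxa5-IRES-GFP from the references, and directions drawn from them rest on their labels. Pontine neuron markers, 14 listed genes, summed to 7693 to 8000 CPM in the Hoxa5tdTomato libraries, 9585 to 12050 in the references and 9761 to 12750 in the libraries labelled Math1Hoxa5-IRES-GFP. In the Hoxa5tdTomato comparison 1 of these 14 fell, Nfib, a nuclear factor I transcription factor (log2 fold change -0.83 ± 0.14, adjusted p = 0.00594, edgeR). That call ended without Hoxa5tdTomato library 1 or library 2.

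**Figure D1:**
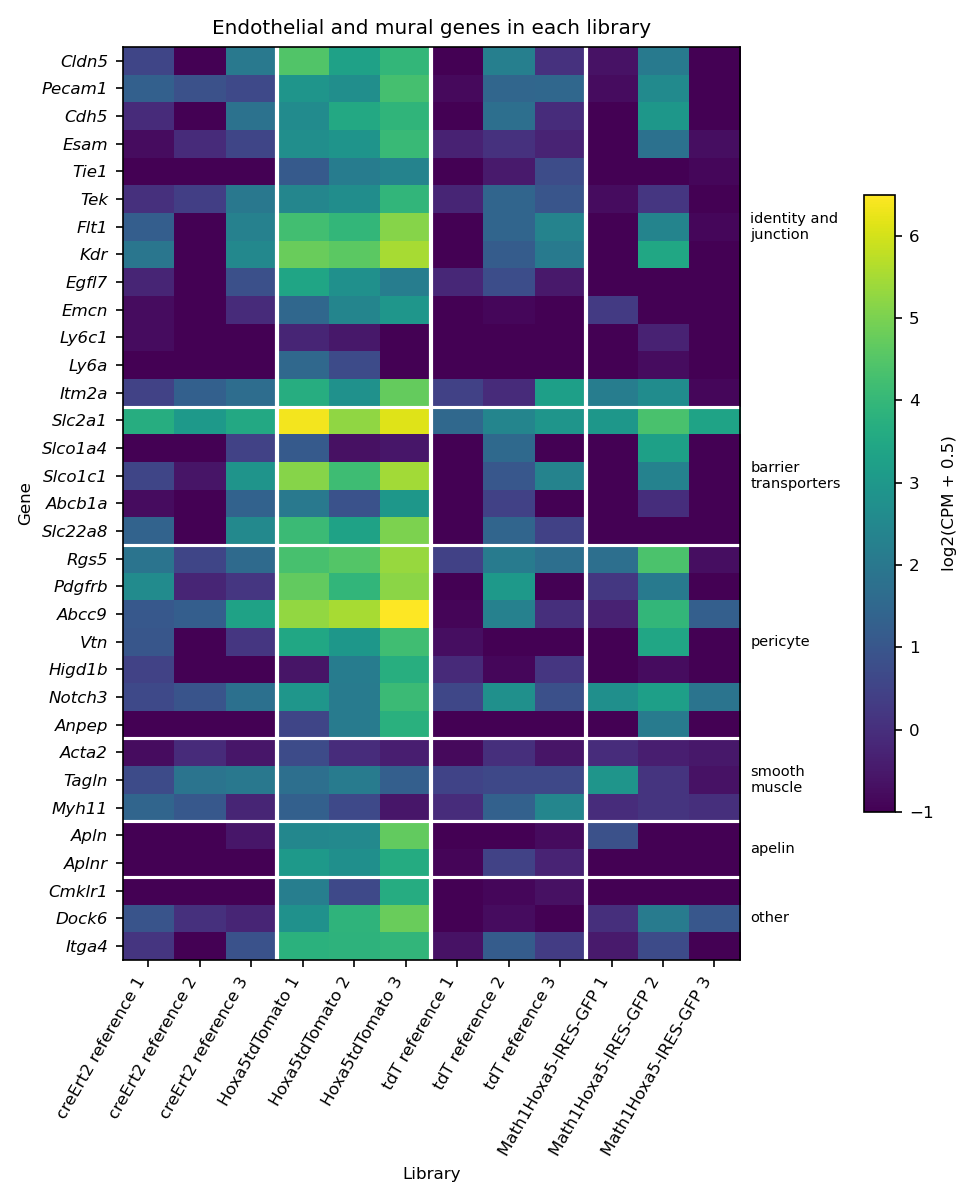
Level of each of the 33 genes (rows, grouped by role) in each of the 12 libraries (columns, grouped by column name), coloured by log2(CPM + 0.5). The 3 Hoxa5tdTomato columns are bright for most endothelial, transporter and pericyte rows and not for the smooth muscle rows, and library 2 labelled Math1Hoxa5-IRES-GFP is brighter than the other libraries of its label.

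Most of the listed endothelial, barrier transporter and pericyte genes stood higher in the Hoxa5tdTomato libraries than in the references. The 3 smooth muscle genes, all at low levels, overlapped with the references. The 33 genes together summed to 404, 314 and 673 CPM in Hoxa5tdTomato libraries 1 to 3. In the references they summed to 45.4, 23.0 and 74.7 CPM in the creErt2 libraries and to 8.49, 58.6 and 49.2 CPM in the tdT libraries. The mean of the Hoxa5tdTomato sums was 10.7 times that of all references and 9.72 times that of the creErt2 references. Of the 33, 23 had every Hoxa5tdTomato library above every reference, all of them among the 30 tested, where 7.15% of all tested genes showed this. That share is a property of how the genes were chosen. The other 10 were Ly6c1, Ly6a, Itm2a, Slco1a4, Abcb1a, Higd1b, Notch3, Acta2, Tagln and Myh11. Fitted log2 fold changes of the 30 tested genes had a median of 3.52, and 29 of the 30 were above 0, against a median of 0.0049 over all 14732 genes. Against the creErt2 references alone, in a fit of 4 column-name groups, the median was 3.55 and 29 of the 30 were again above 0. In bulk libraries, more cells of a type and more RNA per cell cannot be told apart.

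Libraries of the Hoxa5tdTomato group differed among themselves. Library 3 had the highest level of 24 of the 33 genes, library 1 of 8 and library 2 of 1. The matching shares of all genes were not computed. The median ratio of the level in library 3 to that in library 2 was 1.63 over the endothelial identity genes, 2.49 over the transporters and 2.47 over the pericyte genes. Libraries 1 and 2 held a count for all 33 genes and library 3 for 31, with Ly6c1 and Ly6a at 0. The references held a count for 14 to 28 of the 33, and 11 genes had a count in all 6 of them. Most of these genes were therefore at 0 in at least 1 reference, and their reference means rest on few counts.

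**Figure D2:**
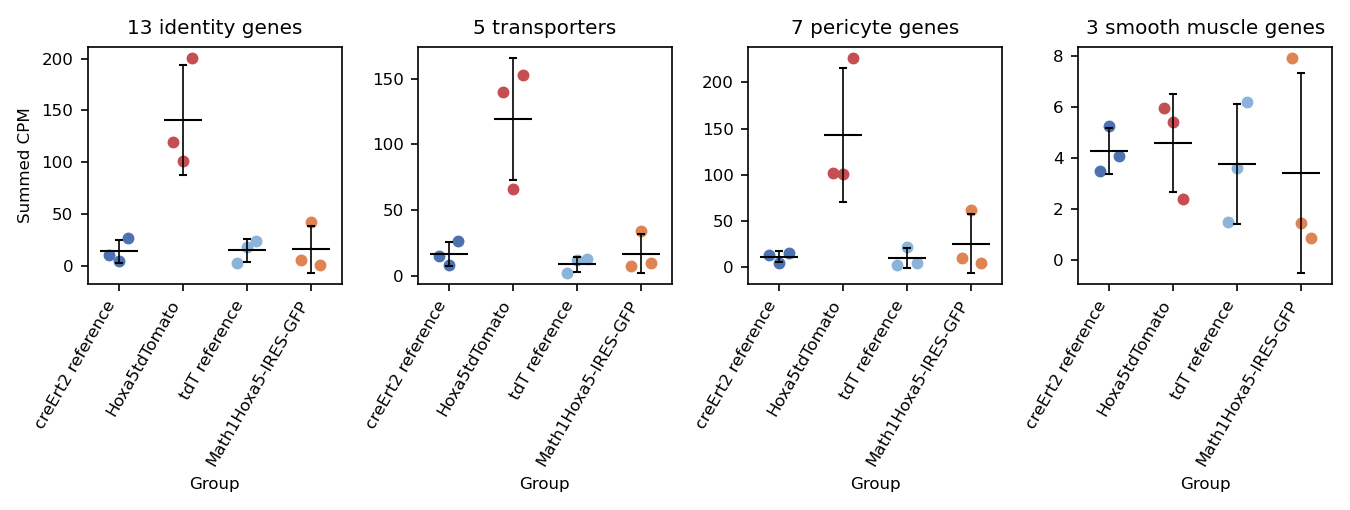
Summed CPM of the 13 endothelial identity genes, 5 barrier transporters, 7 pericyte genes and 3 smooth muscle genes in each library (points), with the mean (line) and SD (bar) of the 3 libraries in each column-name group. The 3 Hoxa5tdTomato points lie above all others in the first 3 panels and among them in the smooth muscle panel.

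Among the endothelial genes, those of cell junctions were low or at 0 in the references and present in every Hoxa5tdTomato library. Cldn5, which encodes the main claudin of brain endothelial tight junctions (chromosome 16, 18776847 to 18778262, here and below from RefSeq on GRCm38.p6, the patched release of mm10), stood at 21.4, 9.22 and 15 CPM in Hoxa5tdTomato libraries 1 to 3 and at 0 to 4.21 with a median of 0.767 CPM in the references, a log2 fold change of 3.28 ± 1.29 (standard error here and below). The groups did not overlap, and library 1 was the highest of the 3. Cdh5, the gene of the endothelial cadherin of adherens junctions (chromosome 8, 104101613 to 104144504), stood at 5.60, 10.9 and 14.4 CPM against 0 to 3.08 with a median of 0.458, a log2 fold change of 3.18 ± 1.45, with library 3 the highest and no overlap. Pecam1, which encodes a platelet and endothelial adhesion molecule (chromosome 11, 106654213 to 106715281), was at 7.03, 5.99 and 18.9 CPM against 0.0713 to 2.36 with a median of 1.64, a log2 fold change of 2.81 ± 1.12. It was one of the junction genes with a count in all 6 references, yet no reference reached the lowest Hoxa5tdTomato library. Esam, an endothelial cell-selective adhesion molecule (chromosome 9, 37528089 to 37538319), was at 6.05, 6.94 and 16.6 CPM against 0.0888 to 0.996 with a median of 0.394, a log2 fold change of 4.42 ± 1.09.

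Receptors for VEGF and angiopoietins were likewise higher in each Hoxa5tdTomato library than in each reference. Kdr, the main signalling receptor for VEGF (chromosome 5, 75932827 to 75979072), had 26.9, 24.1 and 45.2 CPM in Hoxa5tdTomato libraries 1 to 3 and 0 to 5.16 with a median of 2.57 CPM in the references, a log2 fold change of 3.78 ± 1.31. Flt1, a VEGF receptor that also acts as a decoy (chromosome 5, 147561604 to 147726438), had 18.1, 15.2 and 34.4 CPM against 0 to 4.63 with a median of 2.04, a log2 fold change of 3.36 ± 1.26. Both receptors were highest in library 3, and both were at 0 in creErt2 reference 2 and in tdT reference 1. Tek, the angiopoietin receptor (chromosome 4, 94739086 to 94874976), had 4.98, 5.92 and 14.8 CPM against 0.357 to 3.53 with a median of 1.13, a log2 fold change of 2.53 ± 0.93. Tie1, its co-receptor (chromosome 4, 118471191 to 118489849), had 1.69, 3.97 and 4.57 CPM against 0 to 1.16 with a median of 0, a log2 fold change of 3.77 ± 1.44, and was at 0 in all 3 creErt2 references. Angiopoietin and VEGF ligands are not among the 33 and are taken up with the other vascular genes.

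Of the next 3 endothelial identity genes, Emcn and Egfl7 separated the groups and Itm2a did not. Emcn, which encodes a sialomucin of capillary and venous endothelium (chromosome 3, 137341062 to 137431069), had 2.31, 4.85 and 7.23 CPM in the Hoxa5tdTomato libraries and 0 to 0.453 with a median of 0.0226 CPM in the references, a log2 fold change of 5.68 ± 1.53. Egfl7, a secreted protein of endothelial cells (chromosome 2, 26581083 to 26592682), had 10.1, 6.26 and 4.03 CPM against 0 to 1.27 with a median of 0.374, a log2 fold change of 3.54 ± 1.02. Egfl7 was highest in library 1 and Emcn in library 3, so the order of the libraries differed between genes. Itm2a, an integral membrane protein (chromosome X, 107397195 to 107403360), overlapped between the groups, with 12.3, 6.46 and 25.8 CPM against 0.453 to 8.96 with a median of 1.42. The overlap came from tdT reference 3, which lay above Hoxa5tdTomato library 2.

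Ly6a and Ly6c1, surface proteins of the Ly6 family used as endothelial markers, rested on very few counts. Ly6a had 2.40, 1.15 and 0 CPM and no count in any reference, so that its mean level was 42.2 times the floor of 3 counts over all references. Ly6c1 had 0.356, 0.202 and 0 CPM against 1 count over all references, a ratio of 20.2 with a 95% exact binomial interval of 2.60 to 912 for counting error. The Ly6 genes have near-identical relatives, and how the authors' counting split such reads is not given in the sources used here, so both values are uncertain. Such floors and intervals speak of counting error alone, because the RNA was amplified and reads carry no molecular identifiers.

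Of the 5 transporters of the blood-brain barrier, 3 separated the groups and Abcb1a and Slco1a4 overlapped. Slc2a1, which encodes the glucose transporter of brain endothelium and is also used by other brain cells (chromosome 4, 119108745 to 119137330), had 82.6, 38.0 and 69.6 CPM in Hoxa5tdTomato libraries 1 to 3 and 2.42 to 12.2 with a median of 7.47 CPM in the references, a log2 fold change of 3.08 ± 0.44. Its standard error was the smallest of the 30 tested genes, and it had a count in all 12 libraries. Slco1c1, a thyroxine and organic anion transporter (chromosome 6, 141524354 to 141570177), had 34.8, 17.4 and 43.3 CPM against 0 to 6.88 with a median of 1.26, a log2 fold change of 3.76 ± 1.24. Slc22a8, an organic anion transporter (chromosome 19, 8591254 to 8611835), had 16.7, 9.43 and 32.0 CPM against 0 to 5.25 with a median of 1.49, a log2 fold change of 3.49 ± 1.09. These were the 3 without overlap.

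Abcb1a, the efflux pump P-glycoprotein (chromosome 5, 8567091 to 8748575), had 3.56, 1.35 and 7.32 CPM against 0 to 2.08 with a median of 0.0444, and creErt2 reference 3 lay above Hoxa5tdTomato library 2. Slco1a4, an organic anion transporter often taken as a marker of brain endothelium (chromosome 6, 141805438 to 141856284), had 1.69, 0.135 and 0.183 CPM against 0 to 2.44 with a median of 0. It did not follow the other transporters: tdT reference 2 lay above every Hoxa5tdTomato library, and the fitted log2 fold change was 0.24 ± 1.95. Abcb1a has a close copy, Abcb1b, and Slco1a4 belongs to a cluster of related genes, so reads may have been split between copies. Per kilobase of gene length, which allows levels of different genes to be compared, Slco1a4 reached 0.175 ± 0.231 CPM per kb in the Hoxa5tdTomato libraries, while Slco1c1 reached 10.01 ± 4.16 and Slc2a1 24.7 ± 8.91.

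Pericyte genes were higher in the Hoxa5tdTomato libraries together with the endothelial genes. The 7 pericyte genes summed to 102, 101 and 226 CPM in Hoxa5tdTomato libraries 1 to 3 and to 2.42 to 22.3 CPM in the references, a ratio of means of 13.3, where that of the 18 endothelial and transporter genes was 9.63. Abcc9, which encodes the regulatory subunit of a potassium channel of pericytes (chromosome 6, 142587862 to 142702766), had 38.7, 45.2 and 90.0 CPM against 0.0357 to 9.42 with a median of 1.73, a log2 fold change of 4.31 ± 1.00. Library 3 had the highest level, and no reference reached the lowest of the 3. Rgs5, a regulator of G protein signalling (chromosome 1, 169655501 to 169695813), had 19.3, 21.8 and 39.7 CPM against 0.856 to 3.85 with a median of 2.68, a log2 fold change of 3.50 ± 0.83. Pdgfrb, the PDGF receptor through which pericytes are recruited (chromosome 18, 61045127 to 61085067), had 25.5, 14.8 and 36.4 CPM against 0 to 7.74 with a median of 0.495, a log2 fold change of 3.42 ± 1.29. Its references were uneven: tdT references 1 and 3 were at 0, while tdT reference 2 had the highest reference level.

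Vtn, the gene of vitronectin, a matrix protein made by brain pericytes (chromosome 11, 78499120 to 78502325), had 10.6, 7.34 and 18.02 CPM against 0 to 1.51 with a median of 0.0535, a log2 fold change of 5.08 ± 1.57. Anpep, the gene of aminopeptidase N (chromosome 7, 79821803 to 79848210), had 0.978, 3.84 and 13.2 CPM and no count in any of the 6 references. Its mean level was 213.9 times their floor of 3 counts. Its Hoxa5tdTomato levels were spread widely, with library 3 the highest. Higd1b, a pericyte marker (chromosome 11, 102835761 to 102844141), had 0.178, 3.90 and 12.4 CPM against 0 to 0.888 with a median of 0.237, and Hoxa5tdTomato library 1 lay inside the reference range. Notch3, the Notch receptor of mural cells (chromosome 17, 32120820 to 32166896), had 7.20, 3.84 and 16.6 CPM against 0.999 to 6.29 with a median of 1.35, a log2 fold change of 1.98 ± 0.69. This was the lowest fold of the 7 pericyte genes, and tdT reference 2 lay above Hoxa5tdTomato library 2.

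The smooth muscle genes overlapped with the references. They summed to 5.96, 5.39 and 2.38 CPM in Hoxa5tdTomato libraries 1 to 3 and to 1.46 to 6.17 CPM in the references, a ratio of means of 1.14. Acta2, the gene of smooth muscle actin (chromosome 19, 34240336 to 34255585), had 1.16, 0.471 and 0.275 CPM against 0.0713 to 0.498 with a median of 0.176. Tagln, the actin-binding transgelin (chromosome 9, 45929628 to 45936058), had 2.85, 3.84 and 1.92 CPM against 0.927 to 3.53 with a median of 1.10, a log2 fold change of 0.67 ± 0.98. Myh11, the smooth muscle myosin heavy chain (chromosome 16, 14194527 to 14292188), had 1.96, 1.08 and 0.183 CPM against 0.362 to 4.97 with a median of 1.82, a log2 fold change of -0.86 ± 1.07. All 3 overlapped between the groups, and Hoxa5tdTomato library 3, which had the highest pericyte sum, had the lowest level of its group for each of the 3. Per kilobase, Rgs5 reached 14.9 ± 6.15 CPM per kb in the Hoxa5tdTomato libraries, against 0.356 ± 0.260 for Acta2 and 0.140 ± 0.116 for Myh11.

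The apelin pair was nearly absent from the references. Aplnr, the apelin receptor gene of sprouting and venous endothelium (chromosome 2, 85136360 to 85139923), had 7.65, 6.20 and 11.71 CPM in Hoxa5tdTomato libraries 1 to 3 and 0 to 0.906 with a median of 0.0178 CPM in the references, with no count in the 3 creErt2 references. Apln, the gene of its ligand, which is made by endothelial tip cells (chromosome X, 48025146 to 48034853), had 5.07, 5.25 and 25.5 CPM against 0 to 0.181 with a median of 0. Neither gene overlapped between the groups. The log2 fold changes were 5.17 ± 1.23 for Aplnr and 7.98 ± 1.45 for Apln.

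Of the 3 remaining genes, none is a standard vascular marker, and all were higher in each Hoxa5tdTomato library than in each reference. Itga4, an integrin subunit (chromosome 2, 79255426 to 79333114), was the most even of the 33 in the Hoxa5tdTomato libraries, at 13.2, 13.8 and 14.7 CPM against 0 to 1.77 with a median of 0.697, a log2 fold change of 4.15 ± 1.01. Dock6, an activator of Rac1 and Cdc42 (chromosome 9, 21800180 to 21852718), had 6.49, 14.2 and 27.2 CPM against 0 to 1.42 with a median of 0.226, a log2 fold change of 5.41 ± 1.11. Cmklr1, the chemerin receptor (chromosome 5, 113612355 to 113650475), had 4.09, 1.08 and 11.9 CPM against 0 to 0.129 with a median of 0, a log2 fold change of 7.10 ± 1.32.

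**Figure D3:**
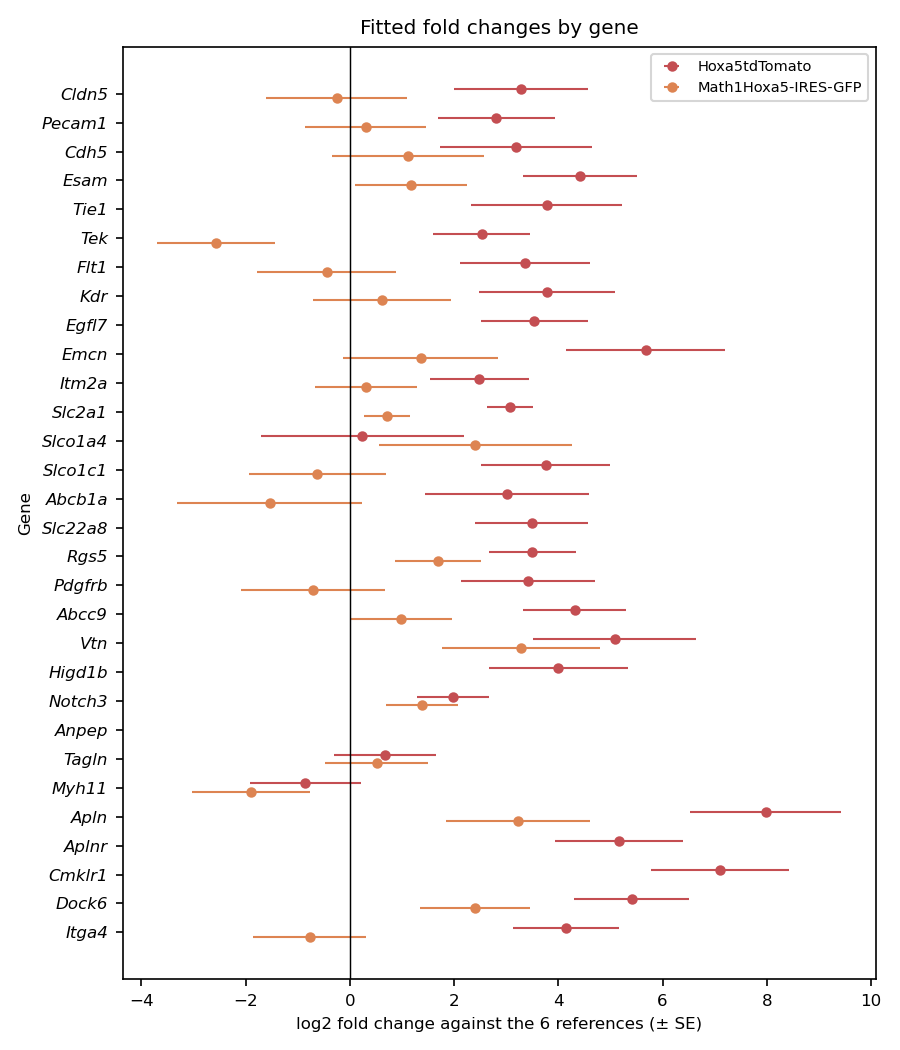
Fitted log2 fold change ± standard error of each tested gene against the 6 references, for Hoxa5tdTomato (red) and the libraries labelled Math1Hoxa5-IRES-GFP (orange). No point is drawn where either group held 3 counts or fewer in all, which leaves out Anpep in both comparisons and 6 more orange points. Red points lie right of 0 except Myh11, and orange points fall on both sides of 0.

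The members' start sites were read for letters bound by transcription factor families that act in vessels. RefSeq windows of 300 bases around the start (GRCm38.p6) were matched for 24 of the 33 genes, in 27 windows. Motifs were searched on both strands, and capitals in the sequences mark matches. AGGAAG, a form of the ETS site read as CTTCCT on the other strand, was in 12 of 27 windows (44.4%). It was in 35.4% of 32851 windows of all genes. Other forms of the ETS site were not searched. The RBPJ core of Notch signalling, TGGGAA or TTCCCA, was in 6 of 27 (22.2%) against 25.6%. The CArG box of smooth muscle genes was searched in its strict form, with only A or T between CC and GG. It was in 0 of 27 windows against 1.63% of all windows. Acta2 was the only smooth muscle gene with a window, so the 0 says little about smooth muscle genes. The marked matches do not overlap in the windows printed. No difference between these shares was tested, and a match is a description of the letters only.

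Windows of 3 genes are shown because they stand for the 3 patterns above. They are an endothelial receptor gene with both motifs, the apelin ligand gene with AGGAAG alone, and a smooth muscle gene whose groups overlapped. Tie1 lies at chr4:118489800-118490099, Apln at chrX:48034804-48035103 and Acta2 at chr19:34255324-34255623, all on the minus strand and printed 5′ to 3′.
Tie1: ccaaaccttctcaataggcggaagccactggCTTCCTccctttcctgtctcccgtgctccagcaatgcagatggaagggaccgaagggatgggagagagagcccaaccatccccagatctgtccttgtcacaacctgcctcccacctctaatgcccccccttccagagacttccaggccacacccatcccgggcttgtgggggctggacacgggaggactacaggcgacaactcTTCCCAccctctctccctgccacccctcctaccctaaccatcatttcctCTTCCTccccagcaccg
Apln: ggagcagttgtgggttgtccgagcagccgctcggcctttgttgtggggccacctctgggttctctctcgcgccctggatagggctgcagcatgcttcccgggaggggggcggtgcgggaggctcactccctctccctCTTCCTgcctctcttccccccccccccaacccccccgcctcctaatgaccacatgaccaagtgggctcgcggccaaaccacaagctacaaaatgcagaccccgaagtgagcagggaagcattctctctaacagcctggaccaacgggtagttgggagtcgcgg
Acta2: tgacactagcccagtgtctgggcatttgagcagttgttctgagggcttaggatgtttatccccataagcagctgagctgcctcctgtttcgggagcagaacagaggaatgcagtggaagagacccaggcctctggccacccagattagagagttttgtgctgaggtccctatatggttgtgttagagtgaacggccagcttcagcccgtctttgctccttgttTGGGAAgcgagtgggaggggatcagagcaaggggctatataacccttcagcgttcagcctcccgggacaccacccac

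The Tie1 window held AGGAAG 2 times, both as CTTCCT, and TGGGAA 1 time, as TTCCCA. The Apln window held CTTCCT 1 time and the Acta2 window TGGGAA 1 time. The Acta2 window also holds CCCTATATGG and CCTTGTTTGG, near forms of the CArG box that the strict search left unmarked.

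In the libraries labelled Math1Hoxa5-IRES-GFP the same genes showed no call. The references in this test are those of the Hoxa5tdTomato difference that was known when the genes were chosen. None of the 30 tested genes passed the test against the 6 references, where 1.84% of all 14732 genes did in either direction, and 8 of the 30 had an unadjusted p under 0.05, where 16.7% of all genes did (edgeR quasi-likelihood test). Some of the 30 passed the filter through the Hoxa5tdTomato libraries: on these 9 libraries alone 22 would pass it, of which 0 were called and 4 had an unadjusted p under 0.05. The other 8 were Tie1, Egfl7, Emcn, Higd1b, Anpep, Apln, Aplnr and Cmklr1, and their values in this comparison rest on few counts. The lowest adjusted p was 0.0692 (edgeR), for Egfl7, which is among these 8. None of the 33 genes had all 3 libraries above or all 3 below the 6 references, where 4.14% of the 23079 genes of the table did. DESeq2 called 2 of the 30, Egfl7 and Slc22a8, both of which had no count in these 3 libraries. Set against the tdT references in the fit of 4 groups, 1 of the 30 passed, Dock6 (log2 fold change 5.81, adjusted p = 0.0428, edgeR), where 0.862% of all genes did. The tdT references held 2 counts of Dock6 in all, under the floor of 3 counts, so its fold and call rest on a nearly empty group. In the fit of 3 label groups, 2 were called without creErt2 reference 2 (Egfl7 and Slc22a8) and 1 without tdT reference 1 (Slc22a8). With library 1 or library 3 labelled Math1Hoxa5-IRES-GFP left out, 1 was called (Anpep). For DESeq2 and for the fits without a library, the matching shares of all genes were not computed.

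Of the libraries labelled Math1Hoxa5-IRES-GFP, library 2 had the highest sum of the 33 genes. The 33 genes summed to 32.4, 144 and 17.7 CPM in libraries 1 to 3, against 8.49 to 74.7 in the references. Library 2 was the highest of its group for 24 of the 33 genes, above every reference for 15 and above the lowest Hoxa5tdTomato library for 9. The matching shares of all genes were not computed, so these counts cannot be called particular to the 33. The Hoxa5 level of library 2 lay within the reference range. Rgs5 was at 2.84, 20.1 and 0.1003 CPM in libraries 1 to 3. Vtn was at 0, 10.3 and 0 CPM. Cdh5 was at 0, 7.33 and 0 CPM. For these 3 genes library 2 reached the range of the Hoxa5tdTomato libraries, while libraries 1 and 3 did not. Slco1a4 was at 0, 9.08 and 0 CPM, and here library 2 exceeded every Hoxa5tdTomato library.

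Library 2 did not carry all of the 33 genes. It was at 0 for Tie1, Egfl7, Emcn, Slc22a8, Apln, Aplnr and Cmklr1, although Pecam1 was at 0.0931, 5.49 and 0 CPM and Kdr at 0, 10.7 and 0 CPM in libraries 1 to 3. Egfl7, Slc22a8, Aplnr and Cmklr1 had no count in any of the 3 libraries. The summed pericyte level was 10.01, 62.1 and 5.22 CPM in libraries 1 to 3, so that library 2 was the highest there too.

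A count in all 3 libraries labelled Math1Hoxa5-IRES-GFP was found for 9 of the 33 genes, and none of the 8 tested among them passed. Slc2a1 was at 7.36, 19.7 and 9.78 CPM, a log2 fold change of 0.71 ± 0.44 (adjusted p = 0.443, edgeR). Against the tdT references alone, which lay below the creErt2 references for this gene, it was 1.37 ± 0.47 (adjusted p = 0.210, edgeR). Notch3 was at 6.19, 8.95 and 3.21 CPM, a log2 fold change of 1.39 ± 0.69 (adjusted p = 0.326, edgeR). Dock6 was at 0.512, 3.87 and 1.55 CPM, a log2 fold change of 2.40 ± 1.06 (adjusted p = 0.263, edgeR). The log2 fold change of Rgs5 was 1.70 ± 0.82 (adjusted p = 0.313, edgeR) and turned to -0.68 without library 2. Abcc9 was at 0.326, 15.02 and 1.91 CPM, and its log2 fold change of 0.98 ± 0.98 (adjusted p = 0.661, edgeR) turned to -1.37 without library 2. For Rgs5 and Abcc9, library 2 set the direction. Itm2a was at 4.05, 5.71 and 0.0502 CPM, and its log2 fold change of 0.30 ± 0.98 (adjusted p = 0.910, edgeR) turned to -0.37 without library 2 and to -0.063 against the tdT references alone.

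The smooth muscle genes were the other 3 with a count in each of these libraries. Tagln was at 6.99, 0.585 and 0.150 CPM, highest in library 1, with a log2 fold change of 0.51 ± 0.98 (adjusted p = 0.834, edgeR) that turned to -2.27 without that library. Myh11 was at 0.466, 0.585 and 0.502 CPM, a log2 fold change of -1.90 ± 1.13 (adjusted p = 0.416, edgeR). Acta2, not tested, was at 0.466, 0.270 and 0.201 CPM.

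The 2 sets of references were compared next. The genes were chosen with the Hoxa5tdTomato difference from these references known. Low reference levels may have taken part in that choice, which limits the differences that can be seen here. None of the 30 genes passed between the tdT and creErt2 references in the fit of 4 groups, where 1.34% of all genes did, and 4 had an unadjusted p under 0.05, where 12.9% of all genes did (edgeR). On these 6 libraries alone 16 of the 30 would pass the filter, of which 0 were called and 1 had an unadjusted p under 0.05. The other 14, among them Cdh5, Esam, Vtn and Dock6, would not pass it, and their values between the references rest on few counts. DESeq2 called 1 gene, Dock6, and edgeR also called it without library 3 labelled Math1Hoxa5-IRES-GFP. Dock6 was at 1.42, 0.533 and 0.362 CPM in creErt2 references 1 to 3 and 0, 0.0906 and 0 CPM in tdT references 1 to 3. The shares of all genes called in these fits were not computed. Slc2a1 was at 12.2, 7.91 and 11.1 CPM in the creErt2 references and 2.42, 4.8 and 7.03 in the tdT references, so that every tdT library lay below every creErt2 library, but the difference did not pass.

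Endothelial and mural sums were then set side by side in each library. The 18 endothelial genes (identity genes and transporters) summed to 259, 168 and 353 CPM in Hoxa5tdTomato libraries 1 to 3, and the 10 mural genes (pericyte and smooth muscle) to 108, 106 and 229 CPM. In both sums library 3 came first, library 1 next and library 2 after it, followed by library 2 labelled Math1Hoxa5-IRES-GFP. The endothelial sum was 26.0, 12.6 and 52.6 CPM in the creErt2 references and 4.42, 29.8 and 36.4 CPM in the tdT references. The mural sum was 17.3, 9.86 and 20.2 CPM in the creErt2 references and 3.89, 25.9 and 11.4 CPM in the tdT references. The lowest value of both sums was in tdT reference 1. The libraries labelled Math1Hoxa5-IRES-GFP had endothelial sums of 12.4, 75.6 and 10.03 CPM and mural sums of 17.9, 63.5 and 6.07 CPM.

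**Figure D4:**
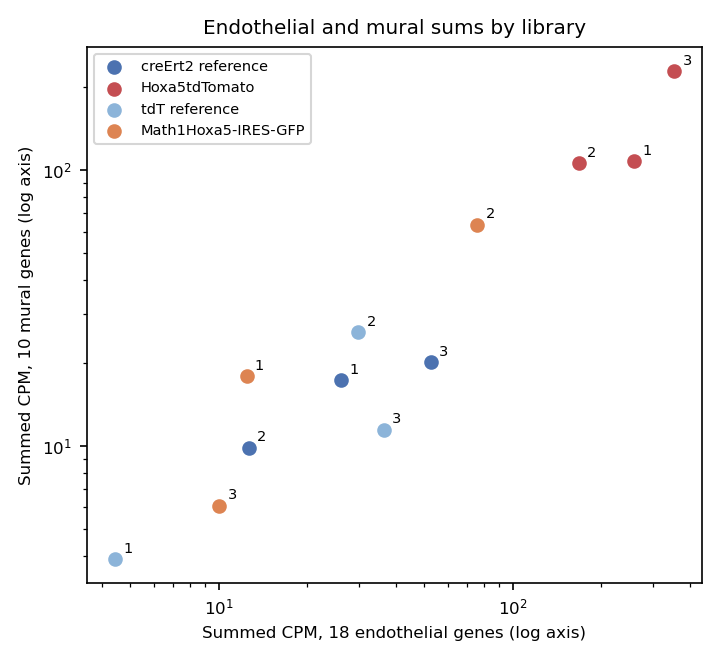
Summed CPM of the 18 endothelial genes (horizontal, log axis) against that of the 10 mural genes (vertical, log axis) for the 12 libraries, coloured by column-name group and numbered by library. The 3 Hoxa5tdTomato libraries lie at the upper right, library 2 labelled Math1Hoxa5-IRES-GFP comes next, and tdT reference 1 lies at the lower left.

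Within groups the sums tended to go together, over few points. Over the 6 references Pearson's r between the endothelial and mural sums was 0.668 and Spearman's rho 0.714, as a description without a p value. Without the 2 references farthest from the median endothelial sum, r was 0.333 over 4 libraries, whose range is narrower by construction. After the mean of each column-name group was taken off the log2 sums, r was 0.879 and rho 0.860 over the 12 libraries, which share the scaling and the depth of their library. With Slc2a1 left out of the endothelial genes and smooth muscle left out of the mural genes, r over the 6 references was 0.577. Between the endothelial and the smooth muscle sums it was 0.439.

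The balance of the 2 sums differed between libraries. The ratio of the endothelial to the mural sum was 2.39, 1.58 and 1.54 in Hoxa5tdTomato libraries 1 to 3. In the references it ran from 1.14 in tdT reference 1 to 3.18 in tdT reference 3, a range that holds all 3 Hoxa5tdTomato values. It was 0.693, 1.19 and 1.65 in the libraries labelled Math1Hoxa5-IRES-GFP. Slc2a1 alone made up 19.7% to 32.0% of the endothelial sum in the Hoxa5tdTomato libraries and 16.1% to 62.7% in the references. In library 3 labelled Math1Hoxa5-IRES-GFP it made up 97.5%, with the 13 identity genes at 0.251 CPM in all.

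Other vascular genes, 142 genes on 6 lists that leave out the 33, were tested in both comparisons. These lists too were chosen with earlier results of these data known, so their calls are not independent evidence. Of 123 tested, 3 rose in the Hoxa5tdTomato libraries (0.842% of all tested genes were called higher) and 0 fell (0.889% of all were called lower). The median log2 fold change of the 123 was 1.60, and 104 were above 0. Every Hoxa5tdTomato library lay above every reference for 47 of the 142, against 5.06% of the 23079 genes of the table. In the fit of 4 groups, against the creErt2 references alone, 0 of the 123 passed, where 0.292% of all genes were called higher, and 19 had an unadjusted p under 0.05, where 8.91% of all genes did (edgeR).

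By role, 1 of 29 tested further endothelial genes rose, Eng, the endothelial co-receptor endoglin, at 28.0, 18.8 and 18.9 CPM in Hoxa5tdTomato libraries 1 to 3 against 0.355 to 3.55 with a median of 1.84 in the references (log2 fold change 3.66 ± 0.70, adjusted p = 0.0141, and 0.153 against the creErt2 references alone, edgeR). Of 28 further barrier genes 1 rose, Ocln, the tight junction protein occludin, at 17.97, 10.2 and 22.8 CPM against 1.07 to 6.75 with a median of 3.68 (log2 fold change 2.31 ± 0.55, adjusted p = 0.0436, and 0.322 in the fit of 4 groups, edgeR). Of 15 Notch and arteriovenous genes 1 rose, Notch4, an endothelial Notch receptor, at 9.87, 9.02 and 9.79 CPM against 0.0906 to 1.78 with a median of 1.13 (log2 fold change 3.09 ± 0.72, adjusted p = 0.0360, and 0.179 in the fit of 4 groups, edgeR). In these 3 genes all Hoxa5tdTomato libraries lay above all references. None of 19 endothelial transcription factors passed (median log2 fold change 2.58), none of 21 further mural genes (1.60), and none of 11 VEGF, angiopoietin and PDGF genes (0.37). Leaving out any 1 of the Hoxa5tdTomato libraries left 0 of the 123 called. Leaving out tdT reference 2 or tdT reference 3 left 1 (Eng), and leaving out creErt2 reference 3 gave 5. Leaving out library 2 or library 3 labelled Math1Hoxa5-IRES-GFP gave 7 and 21. Nr2f2, among the 21, fell (log2 fold change -0.97). The matching shares of all genes in these fits were not computed, so the counts cannot be called particular to these lists.

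In the libraries labelled Math1Hoxa5-IRES-GFP, 1 of the 123 rose and 2 fell, where 1.84% of all tested genes were called in either direction. Lmo2, a LIM-only transcriptional cofactor of blood and endothelial development, was at 44.1, 43.8 and 129.9 CPM against 15.6 to 35.0 with a median of 24.9 in the references (log2 fold change 1.55 ± 0.33, adjusted p = 0.0200, edgeR). The call rested on library 3, without which the log2 fold change was 0.83 (adjusted p = 0.171, edgeR), and it ended without creErt2 reference 3 (adjusted p = 0.0516) and against the tdT references alone (adjusted p = 0.0675). Palmd, the gene of palmdelphin, was at 5.63, 16.2 and 6.07 CPM against 23.9 to 56.5 with a median of 30.6 (log2 fold change -1.99 ± 0.43, adjusted p = 0.0217, edgeR), a call that ended without library 1 (adjusted p = 0.0551) or library 3 (adjusted p = 0.0526). Efnb2, the ephrin of arterial endothelium that neurons also use, was at 26.1, 37.9 and 37.7 CPM against 65.1 to 138 with a median of 95.05 (log2 fold change -1.47 ± 0.28, adjusted p = 0.00985, edgeR). Both Palmd and Efnb2 lay lower in all 3 libraries than in any reference. The count was 7 without library 2 labelled Math1Hoxa5-IRES-GFP, and the matching share of all genes was not computed.

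Levels of markers of other cell types stand beside the vascular values. The 11 meningeal and perivascular fibroblast markers, 6 of them tested and none called, summed to 100.1 to 147 CPM in the Hoxa5tdTomato libraries, 6.38 to 30.5 in the references and 4.82 to 64.2 in the libraries labelled Math1Hoxa5-IRES-GFP, with Slc6a13 at 0 in all 12. In the Hoxa5tdTomato comparison the 6 tested had a median log2 fold change of 3.28, all above 0, and 5 of the 11 had every Hoxa5tdTomato library above every reference. The 12 microglia and macrophage markers, 8 tested and none called, summed to 65.5, 9.22 and 14.4 CPM in Hoxa5tdTomato libraries 1 to 3. They summed to 0.321 to 19.4 CPM in the references, with Pf4 at 0 throughout. Their 8 tested genes had a median log2 fold change of 1.88 in Hoxa5tdTomato against the references, all above 0. None of the 12 had every Hoxa5tdTomato library above every reference. Erythroid markers, 2 of them tested and none called, summed to 7.83 to 18.48 CPM against 0.642 to 13.8, and Hba-a2 and Hbb-y were at 0 throughout. Of 10 tested astrocyte and radial glia markers 2 rose, Slc4a4 (log2 fold change 1.38 ± 0.27, adjusted p = 0.0141) and Ptprz1 (1.58 ± 0.30, adjusted p = 0.0141, edgeR), and the list summed to 1117 to 1589 CPM against 694 to 1172. Both calls ended when any 1 of the Hoxa5tdTomato libraries was left out and in the fit of 4 groups. None of 7 tested oligodendrocyte lineage markers passed. In the libraries labelled Math1Hoxa5-IRES-GFP, Ptprz1 rose (log2 fold change 1.49 ± 0.30, adjusted p = 0.0143), a call that ended without library 2 and in the fit of 4 groups. Of the neuron markers, Lhx2 fell there (log2 fold change -5.16 ± 0.94, adjusted p = 0.00732) and Snap25 rose (0.60 ± 0.15, adjusted p = 0.0463, edgeR), the latter not in the fit of 4 groups (adjusted p = 0.185). What part these cell types have in the vascular values was not tested.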

How the data were processed

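Per the file headers, the deposited table gives read counts without normalization, as the authors made them, for 12 libraries and 23079 genes under Entrez numbers and symbols, beside a gene length in bases. The submitters' processing notes name mm10 and bcl2fastq 1.8.4. Which aligner, counting tool, annotation and strand setting were used is not given in the sources used here, so reads of overlapping and antisense genes cannot be told apart. Rows without a symbol, 15 genes, were kept in the library totals.

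Genes were filtered with filterByExpr of edgeR at a minimum count of 10, scaled with TMM factors and tested in 3 label groups with edgeR 4.0.16 under R 4.3.3 by quasi-likelihood F tests. Benjamini-Hochberg adjusted p values over 14732 genes were held against 0.05. CPM are counts per 1000000 counts of the scaled library, and sums over lists are sums of CPM. The floor is 3 counts, or 0.107 to 0.275 CPM in a single library. A fit of 4 column-name groups, DESeq2 1.42.0, RLE factors, library size only, no filter, thinning to the smallest total, a replicate block, mean log2(CPM + 0.5) in place of sums, and leaving out each library in turn were the alternatives. Leaving out library 2 labelled Math1Hoxa5-IRES-GFP together with tdT reference 2 was added after the data were seen. The fits were tested on simulated data.

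The members and all gene lists were chosen with earlier results of these data known. All 33 members are accounted for. Of the other vascular lists, genes past 0.05 are named, at most the 5 with the largest change per list and comparison, and of the markers of other cell types at most 3 per list and any at 0 in all libraries, except 1 that is not reported here. Of 239 listed symbols 237 were found, 6 of them by Entrez number only. RefSeq GRCm38.p6 matched 23008 of the 23079 Entrez numbers.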

Additional observations from a re-analysis of the deposited data

Results flagged for a closer look

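For each of the 33 genes and each summed list, the highest and lowest of the 6 references were checked for a gap to the next library that is large against the range of the group. Of 55 values checked 7 stood out. For normally spread values chance gives about 1 in 20, but many of these genes are at 0 in several references, so the number cannot be read against that rate. Tie1 was at 1.16 CPM in tdT reference 3, with the next reference at 0.226. Emcn was at 0.453 CPM in creErt2 reference 3, with the next at 0.0888. Ly6c1 was at 0.0888 CPM in creErt2 reference 1, which is its 1 count, and at 0 in the other references. Itm2a was at 8.96 CPM in tdT reference 3, with the next at 2.72. Slco1a4 was at 2.44 CPM in tdT reference 2, with the next at 0.906. Notch3 was at 6.29 CPM in tdT reference 2, with the next at 2.90. Cmklr1 was at 0.129 CPM in tdT reference 3, with the next at 0.0453.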

How the results depend on the processing

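The median log2 fold change of the 30 tested genes in Hoxa5tdTomato (3.52) was 4.25 with a replicate block and ran from 3.20 to 3.76 when each library was left out. Of 570 alternative values of the single folds, 525 lay within 1 SD between libraries, and 28 of the 30 genes stayed above 0 in every setting run. For the libraries labelled Math1Hoxa5-IRES-GFP the count of called members (0) was 2 without the filter, 1 in the fit of 4 groups, 2 with DESeq2 and 0 to 2 when each library was left out. When each library was left out, the log2 fold change of Rgs5 there ran from -0.68 to 2.27 and that of Abcc9 from -1.37 to 1.78, both lowest without library 2 of that label, and without both that library and tdT reference 2 they turned to -0.48 and -1.20. That of Itm2a (0.30) ran from -0.37 to 1.27, and was -0.063 in the fit of 4 groups and -0.59 without those 2 libraries. That of Tagln (0.51) ran from -2.27 without library 1 of that label to 1.07, and was -0.28 with the replicate block.

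Of the other vascular genes, the count called in Hoxa5tdTomato (3) was 6 without the filter, 0 in the fit of 4 groups and 1 with the replicate block. That 1 was Gucy1a1, and Eng, Ocln and Notch4 were not called with the block. The count was 6 after thinning, 12 with DESeq2 and 0 to 21 when each library was left out. Nr2f2, among the 12, fell (log2 fold change -0.93). The 3 called in the libraries labelled Math1Hoxa5-IRES-GFP became 6 without the filter, 11 with DESeq2, 6 without library 2 and tdT reference 2, and 2 to 7 when each library was left out. Between the references the count of members (0) was 1 with DESeq2 and 0 to 1 when each library was left out. Apart from the fit of 4 groups, the shares of all genes called under the alternatives of this section were not computed. Of 400 alternatives of the single tested genes, 330 kept their direction and their side of the threshold, 60 fell below it, 1 passed it and 9 turned. The cause was not tested. The correlation of the summed levels over the references (0.668) was 0.679 with library size only and 0.714 on mean log2 levels.

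Libraries with the same number did not deviate together: correlations were 0.023, 0.015 and 0.026 in the creErt2 and Hoxa5tdTomato libraries, and -0.028, 0.041 and 0.049 in the others, so the numbers were not taken as pairs and the block stands only here. Genes with few counts are limited by depth, since a single count is worth more CPM in the shallower libraries.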
